A study of Drosophila melanogaster with 8 samples.

Results

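Fatty acid synthesis genes and fat breakdown genes were followed in heads of adult male fruit flies, Drosophila melanogaster, after 2 drugs given in the food. The synthesis genes were FASN1, AcCoAS, Desat1 and Cyt-b5-r, and the breakdown genes were whd and Lip4. Every clone on the array that is annotated to 1 of these 6 genes was taken, each clone apart, which gave 9 of the 13824 clones. The synthesis genes held 7 of them (3 for Desat1, 2 for Cyt-b5-r, and 1 each for FASN1 and AcCoAS) and the breakdown genes held 2. Clones of 1 gene are numbered here by their place on the array, and they are readings of the same transcript pool, not replicates of the treatment.

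Animals build fatty acids from acetyl-CoA. Acetyl-CoA synthetase (AcCoAS, CG9390) makes acetyl-CoA from acetate, fatty acid synthase (FASN1, CG3523) links the carbon units into saturated chains, and the stearoyl-CoA desaturase Desat1 (CG5887) puts a double bond into those chains. Cyt-b5-r (CG13279) encodes a cytochrome b5-related protein that resembles fatty acid desaturases. Stored fat is released by lipases, of which Lip4 (CG6113) is known in flies as one raised by fasting, and whd (CG12891) encodes carnitine palmitoyltransferase 1, which brings fatty acids to the mitochondrion for beta-oxidation. In the fly head both sides of this balance are known mainly from the fat body, the insect counterpart of liver and adipose tissue, and in fasting the breakdown genes are known to rise while synthesis genes fall.

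All flies were unmated males of the wild-type strain Oregon-R, 3 to 4 days old when treatment began. Treated flies of day 14 ate pentylenetetrazole, a convulsant that blocks GABA-A receptors, at 8 mg/ml for 7 days, then vigabatrin, which inhibits the GABA-degrading transaminase, at 24 mg/ml for 3 days, and then drug-free food for 4 days. Treated flies of day 10 had the same 7 days of pentylenetetrazole and 3 days of vigabatrin and were harvested when the vigabatrin ended. Control flies of each day ate drug-free food throughout and were moved to new vials at the same times. No group received 1 of the drugs alone, so the drugs cannot be told apart, and food intake is not given in the sources used here. Each of the 4 arrays per day set 1 pool of treated heads against 1 parallel pool of control heads, so single flies are not seen. Whether the pools of different arrays were fully separate is not stated. Treated RNA carried the dye Cy5 in replicates 1 and 2 of each day and Cy3 in replicates 3 and 4.

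Each value is a log2 ratio with treated signal over control signal, so that a negative value is a lower signal in treated heads. The deposited ratios were read as Cy5 over Cy3 and their sign was turned on the dye-swapped arrays. This direction is an assumption that the file does not state. The deposited ratios of arrays with the same dye orientation correlated above 0 in 12 of 12 pairs, the lowest at 0.03. Those of opposite orientation did so in 4 of 16 pairs. A bias between the dyes would give such a pattern too, so it does not settle the direction. The arrays had a value for 8419 to 20241 of the 27648 spots, and each clone was printed as a pair of neighbouring spots. The median ratio of an array lay between -0.485 and 0.237, and 2 more scalings are therefore given beside the deposited values: one subtracts the array's median (array-median centred), the other the median of the clones printed around the clone (locally centred). Tests came from limma over all 4563 clones with enough values (4255 when locally centred), with Benjamini-Hochberg adjustment. Each clone had 1 dye term, common to both days. A clone passed at an adjusted p under 0.05. The number of arrays limits the precision of every value. Of the head markers on the array, the neuronal genes nSyb and Gad1 and the photoreceptor genes Arr1 and inaD had values on all 8 arrays, trp on 7 and Arr2 on 2, while Jon65Aiii, the 1 of 6 midgut markers on the array, had a value on 3.

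Of the 9 member clones, 7 had enough values to be tested, 5 of synthesis genes and both breakdown clones. At day 14 none of the 7 passed in the fit over all arrays, where 0.0% of all clones passed and 802 had an unadjusted p under 0.05. At day 10, 3 of the 7 were lower in treated heads as deposited: Cyt-b5-r clone 1, AcCoAS and Desat1 clone 2. In that comparison 13.6% of all tested clones were called lower and 14.0% were called in either direction (620 lower and 18 higher), with a median over all clones of -0.21. After array-median centring 2 of the 7 were lower, Cyt-b5-r clone 1 and AcCoAS, against a background of 2.19% (100 lower and 38 higher of all clones, median 0.01). After local centring 2 were lower, Cyt-b5-r clone 1 and Desat1 clone 1, against 1.32%. Neither breakdown clone passed on either day in any of these scalings.

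**Figure D1:**
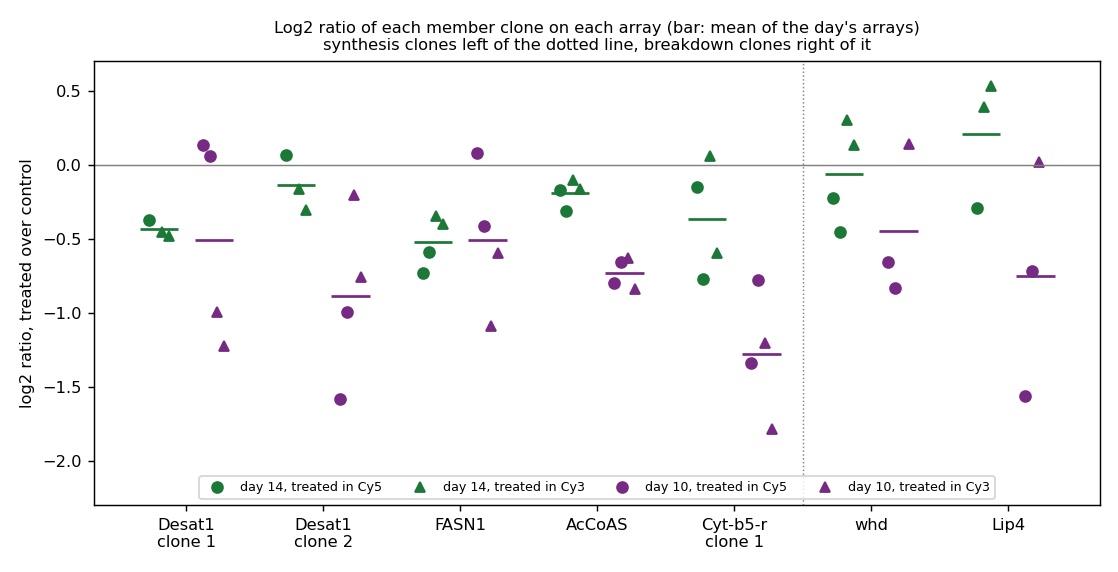
Log2 ratio of treated over control (vertical axis) for the 7 tested member clones on each array, day 14 left of day 10 within each clone. Circles are arrays with treated RNA in Cy5, triangles with treated RNA in Cy3, and bars are the mean of the day's arrays. AcCoAS lies below 0 on all 8 arrays, from -0.84 to -0.11, and the whd and Lip4 circles lie below their triangles on both days.

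As deposited, AcCoAS was the one member clone that read below 0 on all 8 arrays. After array-median centring Cyt-b5-r clone 1 did so as well. At day 14 the log2 ratios of AcCoAS were -0.17, -0.32, -0.11 and -0.16 in replicates 1 to 4. At day 10 they were -0.80, -0.66, -0.63 and -0.84. After array-median centring the ranges of the days overlapped, at -0.40 to -0.18 for day 14 and -0.78 to -0.31 for day 10. A value below 0 on every measured array of both days was found for 5.22% of all tested clones. The fitted ratio was -0.19 ± 0.11 (SE, n = 4, adjusted p = 0.39) at day 14 and -0.73 ± 0.11 (SE, n = 4, adjusted p = 0.00253) at day 10, a signal 1.66-fold lower in treated heads. After array-median centring the day-10 ratio was -0.52 ± 0.10 and passed with an adjusted p of 0.0261. After local centring, where 3 arrays of day 10 kept a value, it was -0.54 ± 0.13 and missed the threshold with an adjusted p of 0.0768. Leaving out 1 array in turn kept the call as deposited 8 of 8 times, between -0.77 and -0.68. After array-median centring it held only 2 of 8 times, with adjusted p up to 0.0888. Of each 8 fits, 4 left out a day-14 array, which bears on the day-10 ratio only through the dye term and the spread. The mean over both days passed in all 3 scalings, at -0.46 ± 0.08 with the deposited values (adjusted p = 0.00512), -0.38 ± 0.07 with array medians removed (adjusted p = 0.0173) and -0.47 ± 0.08 with local centring (adjusted p = 0.0185).

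Cyt-b5-r clone 1 had the lowest day-10 ratio of the members and the 11th lowest of the 4563 tested clones. At day 14 its log2 ratios were -0.15, -0.77, 0.06 and -0.59 in replicates 1 to 4. The value of replicate 3 is the mean of a pair of spots that disagreed, at -0.89 and 1.0. At day 10 the ratios were -1.34, -0.78, -1.20 and -1.78. All 4 arrays were below 0 at day 10 and 3 of 4 at day 14. The fit gave -0.37 ± 0.17 at day 14 (adjusted p = 0.303) and -1.28 ± 0.17 at day 10 (adjusted p = 0.00178), a 2.42-fold lower signal in treated heads (SE, n = 4 each). The day-10 call held after array-median centring (-1.06 ± 0.18, adjusted p = 0.017) and after local centring (-1.14 ± 0.21, adjusted p = 0.0339). Fits that left out 1 array as deposited gave ratios from -1.45 to -1.10. The call held in all 8 of them, 4 of which left out a day-14 array. With array medians removed it held in 6 of 8, and was lost without replicate 1 of day 10 (adjusted p = 0.0878) or replicate 4 of day 10 (adjusted p = 0.06). The second clone of this gene had values on replicates 1 and 2 of day 10 only, -1.10 and -0.77, and could not be tested. The clones around it had medians of -0.96 and -0.62 on those arrays. Relative to these neighbours it read -0.14 and -0.15, where the first clone read -0.91 and -0.49 relative to its own.

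Desat1 was read by 3 clones. Clone 1 had log2 ratios of -0.37, -0.45 and -0.48 in replicates 1, 3 and 4 of day 14, with no value in replicate 2. At day 10 it read 0.13, 0.06, -0.995 and -1.22. Its day-14 readings were close together, whereas at day 10 the arrays with treated RNA in Cy5 lay above 0 and those with treated RNA in Cy3 lay far below. Clone 2 read 0.07, -0.17 and -0.31 in replicates 1, 3 and 4 of day 14, again with no value in replicate 2. At day 10 its ratios were -1.58, -0.99, -0.21 and -0.76. All 4 of these were below 0, with the arrays of treated RNA in Cy5 the lowest, the opposite order to clone 1. Clone 3 had a single value, -0.27 from 1 spot in replicate 1 of day 10, above the median of -0.38 of the clones around it.

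The clones printed around each Desat1 clone differed as well. Clone 1 and clone 2 were printed in different blocks, and in replicates 1 and 2 of day 10 the clones around clone 1 had median ratios of 0.62 and 0.47, while those around clone 2 had medians of -0.67 and -0.36. Taken relative to these neighbours, clone 1 read -0.28, -0.47 and -0.56 at day 14 and -0.48, -0.41, -0.73 and -1.11 at day 10. Clone 2, relative to its own neighbours, read -0.40, -0.11 and -0.64 at day 14 and -0.91, -0.64, -0.23 and -0.61 at day 10. Every reading of both clones was then below 0. The fitted day-10 ratios were -0.51 ± 0.15 for clone 1 and -0.89 ± 0.18 for clone 2 as deposited (SE, n = 4 each), with adjusted p of 0.0527 and 0.0115. Without replicate 1 of day 10 the call of clone 2 was lost, at -0.67 with an adjusted p of 0.0511. After local centring the clones came closer, at -0.68 ± 0.10 (adjusted p = 0.016) and -0.60 ± 0.12 (adjusted p = 0.0528). Neither passed after array-median centring, at -0.29 (adjusted p = 0.399) and -0.67 (adjusted p = 0.0546).

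The mean over both days put the Desat1 clones at -0.41 ± 0.12 and -0.54 ± 0.14 as deposited (SE, n = 7 each), of which the second passed (adjusted p of 0.0563 and 0.0334). Leaving out any 1 of 5 arrays ended that call of clone 2, at adjusted p between 0.064 and 0.135. After local centring both clones passed, at -0.53 ± 0.08 (adjusted p = 0.00823) and -0.51 ± 0.09 (adjusted p = 0.0208). The array holds cDNA clones, and whether they also bound transcripts of related genes such as Desat2 was not tested.

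**Figure D2:**
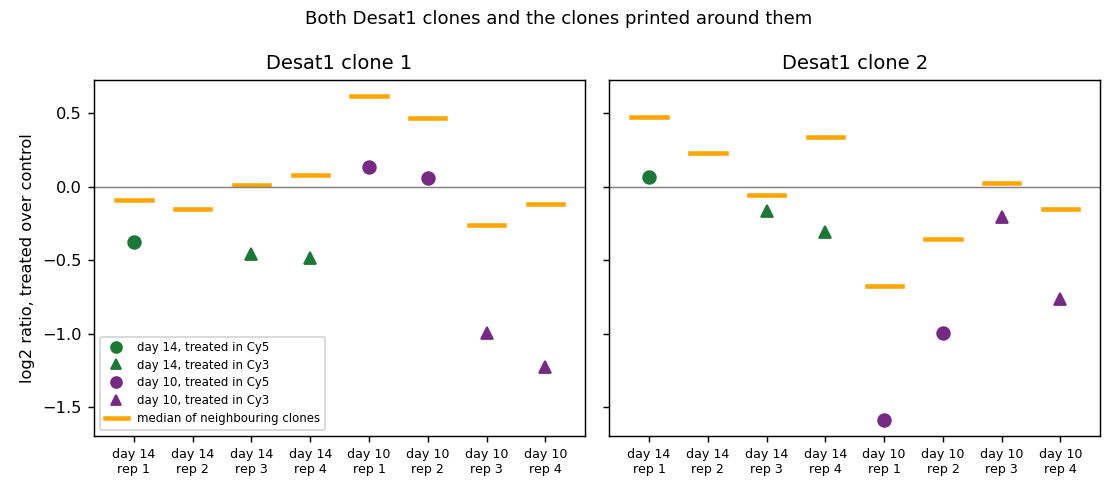
Log2 ratio of treated over control (vertical axis) of Desat1 clone 1 (left) and clone 2 (right) on each array, with orange bars for the median of the clones printed around each. Circles are arrays with treated RNA in Cy5 and triangles in Cy3. Each measured value of these 2 clones lies below its own orange bar, while the bars themselves run from -0.67 to 0.62.

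FASN1 read below 0 on 7 of 8 arrays. At day 14 its log2 ratios were -0.73, -0.59, -0.35 and -0.40 in replicates 1 to 4. At day 10 they were 0.08, -0.41, -1.09 and -0.60, so that 3 of 4 were below 0 and the values spread over more than a log2 unit. The 2 spots behind replicate 1 of day 10 read -0.38 and 0.53. The fitted ratios were -0.52 ± 0.16 at day 14 (adjusted p = 0.18) and -0.51 ± 0.16 at day 10 (adjusted p = 0.057), and neither passed (SE, n = 4 each). Leaving out 1 array moved the day-10 ratio from -0.70 without its replicate 1, where it passed (adjusted p = 0.0308), to -0.31 without its replicate 3 (adjusted p = 0.166). It also passed among clones measured on all 8 arrays (adjusted p = 0.0312) and with the first spot alone (-0.67, adjusted p = 0.0166), but not with the second (-0.34, adjusted p = 0.27). Its day-14 ratio was the 47th lowest of the 4563 tested clones, lower than that of any other member. The mean over both days was -0.51 ± 0.11 as deposited and passed (adjusted p = 0.0173), but it missed the threshold after array-median centring (-0.43 ± 0.13, adjusted p = 0.0742) and after local centring (-0.49 ± 0.13, adjusted p = 0.0661). Without replicate 2 of day 14 that call was also lost, with an adjusted p of 0.0532.

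In the mean over both days, 4 of the 7 member clones were lower as deposited: Cyt-b5-r clone 1, AcCoAS, FASN1 and Desat1 clone 2, against a background of 9.47% called lower. Array-median centring left 2, Cyt-b5-r clone 1 (-0.74 ± 0.13, adjusted p = 0.0141) and AcCoAS, against 4.89%. Local centring gave 4, namely both Desat1 clones, AcCoAS and Cyt-b5-r clone 1 (-0.70 ± 0.17, adjusted p = 0.0486), against 3.85%. All 5 tested synthesis clones had a fitted ratio below 0 on both days in each scaling, between -0.57 and -0.19 at day 14 and between -1.28 and -0.29 at day 10. So had the breakdown clone whd, closer to 0, and so had 37.2% of all tested clones as deposited, 31.0% with array medians removed and 34.3% with local centring. These members were chosen with results of these arrays known, so that their shared direction is a description.

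When the day-14 arrays were fitted alone, with their own estimate of the spread, 15.0% of 5674 clones passed, 265 lower and 588 higher. With 3 or 4 arrays per clone for a ratio and a dye term, limma drew each clone's spread in part from all clones. The 4 day-14 arrays of Cyt-b5-r clone 1 ran from -0.77 to 0.06, and Desat1 clone 1 had 3 arrays. FASN1 was then lower with an adjusted p of 0.00136, Desat1 clone 1 (-0.42) with 0.0303 and Cyt-b5-r clone 1 with 0.0322, against 4.67% of clones called lower. With array medians removed, 3.74% of clones were lower, FASN1 (-0.57, adjusted p = 0.0344) and Desat1 clone 1 (-0.50, adjusted p = 0.0431) among them. The day-10 arrays fitted alone called 1.15% of 7470 clones lower and the same 3 members as the fit over all arrays, at adjusted p from 0.0215 to 0.0479, and no clone at all after array-median centring, where 1070 clones had an unadjusted p under 0.05.

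**Figure D3:**
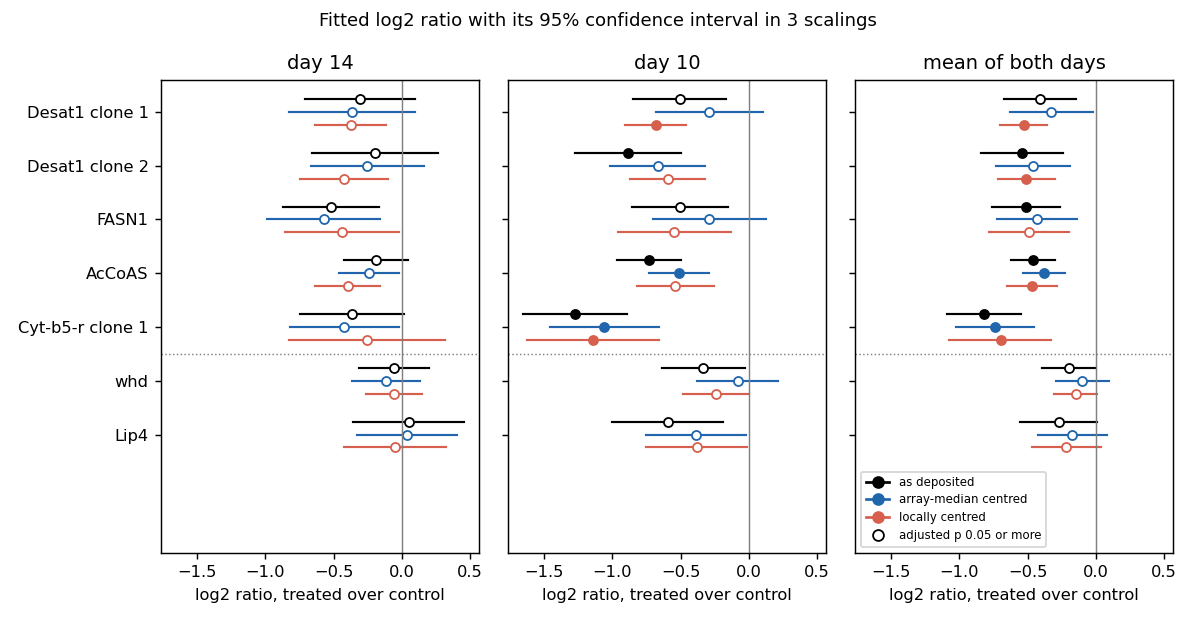
Fitted log2 ratio of treated over control (horizontal axis) with its 95% confidence interval for each tested member clone at day 14, at day 10 and in the mean of both days, in 3 scalings. Filled points passed at an adjusted p under 0.05. Synthesis clones, above the dotted line, lie below 0 in each panel, as does whd under it, and no point of whd or Lip4 is filled.

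The change between the days was tested as the day-14 ratio minus the day-10 ratio, where a positive value means a smaller decrease after 4 days on drug-free food. No clone of the array passed (0.0% of 4563, with 1225 at an unadjusted p under 0.05), in a setting where the median difference over all clones was 0.28 as deposited and 0.02 after array-median centring. Among the members the largest differences were those of Cyt-b5-r clone 1, 0.91 ± 0.25 (95% confidence interval 0.37 to 1.45), and AcCoAS, 0.54 ± 0.15 (0.22 to 0.87), each with an adjusted p of 0.128. After array-median centring they were 0.64 ± 0.26 (0.07 to 1.21) and 0.27 ± 0.14 (-0.04 to 0.58). FASN1 differed by -0.01 ± 0.23 (-0.51 to 0.48). Desat1 clone 1 and clone 2 differed by 0.20 ± 0.24 and 0.69 ± 0.27. With the dye term common to both days, the fitted day-14 ratio of clone 1 was -0.31. Its 3 readings of that day were all lower, at most -0.37.

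No rise of a breakdown gene was called on either day. whd had log2 ratios of -0.22, -0.45, 0.30 and 0.13 in replicates 1 to 4 of day 14. At day 10 it read -0.66, -0.83 and 0.14 in replicates 1, 2 and 4, with no value in replicate 3. On both days the arrays with treated RNA in Cy5 were below 0 and those with treated RNA in Cy3 above it, so the sign went with the dye. The fit gave -0.06 ± 0.12 at day 14 (95% confidence interval -0.32 to 0.20, adjusted p = 0.841) and -0.34 ± 0.14 at day 10 (-0.64 to -0.03, adjusted p = 0.117). After array-median centring the day-10 ratio was -0.08 ± 0.13 (-0.38 to 0.21).

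Lip4 followed the same split. It read -0.29, 0.39 and 0.53 in replicates 2, 3 and 4 of day 14, with no value in replicate 1. At day 10 it read -1.56, -0.72 and 0.02 in replicates 1, 2 and 3, with no value in replicate 4. Again each array with treated RNA in Cy5 lay below each array with treated RNA in Cy3. The fitted ratios were 0.05 ± 0.18 at day 14 (-0.36 to 0.46, adjusted p = 0.928) and -0.60 ± 0.18 at day 10 (-1.01 to -0.19, adjusted p = 0.0578), from 3 arrays each. After array-median centring the day-10 ratio was -0.39 ± 0.16 (-0.75 to -0.02, adjusted p = 0.219). The second of its spots alone turned the day-14 ratio to -0.14.

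The dye terms put numbers on that split. As deposited they were -0.34 ± 0.09 for whd (adjusted p = 0.0357) and -0.48 ± 0.13 for Lip4 (adjusted p = 0.0448), and both passed, as did 13.2% of all clones. None of the 5 synthesis clones passed on this term, the nearest being Desat1 clone 1 with 0.38 ± 0.12 (adjusted p = 0.0575). The clones around whd had medians of -0.09, -0.31, 0.25 and 0.13 on the arrays of day 14 and of -0.14, -0.61, 0.19 and 0.23 on those of day 10, with the same signs as whd itself wherever it was measured. After local centring the dye terms were -0.11 ± 0.07 for whd and -0.11 ± 0.12 for Lip4, and no clone of the array passed on it (0.0% of 4255, with 555 at an unadjusted p under 0.05).

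Set against each other on each array, the median of the synthesis clones minus the median of the breakdown clones was 0.05, -0.22, -0.51 and -0.73 at day 14 and 0.31, 0.12, -1.01 and -0.98 at day 10. The breakdown side was whd alone in replicate 1 of day 14 and replicate 4 of day 10, and Lip4 alone in replicate 3 of day 10. The difference was below 0 on all 4 dye-swapped arrays and on 1 of the 4 others. After local centring it was -0.23, -0.18, -0.43 and -0.58 at day 14 and 0.24, -0.25, -0.76 and -0.82 at day 10, below 0 on 7 of 8 arrays. The single array above 0 was replicate 1 of day 10, in which whd (-0.51) and Lip4 (-0.93) both had their lowest locally centred values. Had the submitters already turned the ratios, which the file does not settle, the difference would be below 0 on 1 of 8 arrays as deposited and on 3 of 8 after local centring. Read as Cy5 over Cy3, the member clones called at day 10 and in the mean of both days were all lower and all synthesis clones. Of the 7 tested members 5 are synthesis clones, and most called clones of the array were lower too. As deposited these were 620 lower and 18 higher at day 10, and 432 lower and 18 higher in the mean. Lip4 missed the day-10 threshold narrowly (-0.60, adjusted p = 0.0578). It lay below FASN1 and Desat1 clone 1, both at -0.51, which missed it as well. Whether the sides differed from each other was not tested, since the members were chosen with results known.

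**Figure D4:**
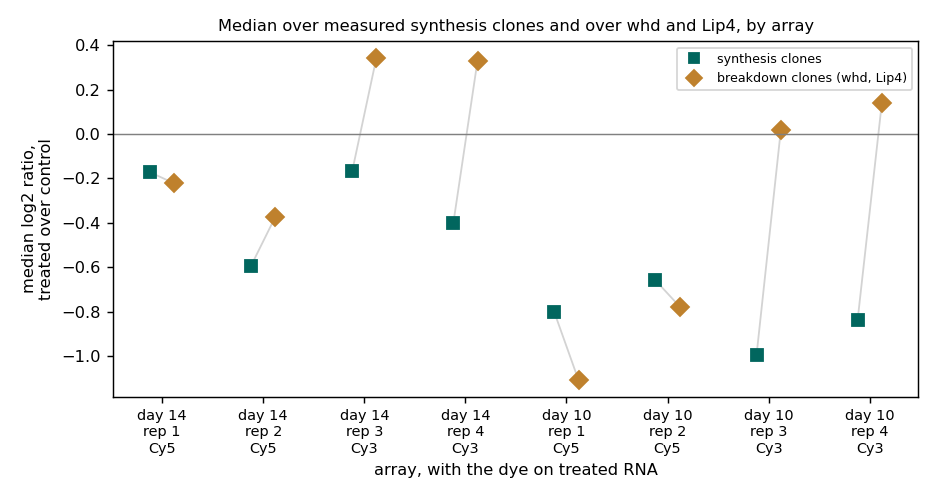
Median log2 ratio of treated over control (vertical axis) over the measured synthesis clones (squares) and over whd and Lip4 (diamonds) on each array, values as deposited, with the dye of treated RNA under each array. The diamond is whd alone in replicate 1 of day 14 and replicate 4 of day 10, and Lip4 alone in replicate 3 of day 10. Squares lie below 0 on every array, from -0.995 to -0.17, while diamonds lie above 0 on the 4 dye-swapped arrays and below it on the other 4.

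If the deposited ratios had already been turned to treated over control by the submitters, the day-10 ratios would be 0.00 for AcCoAS, 0.22 for Cyt-b5-r clone 1, 0.60 for Desat1 clone 1, 0.34 for FASN1 and -0.40 for Desat1 clone 2, against -0.49 for whd and -0.69 for Lip4, and none would pass. In the mean of both days Lip4 would then be the 1 member to pass, lower at -0.58 (adjusted p = 0.0486), and whd would be at -0.38 (adjusted p = 0.056). Both breakdown clones would then lie below 0 on every array that measured them, 7 arrays for whd and 6 for Lip4. Agreement between arrays therefore does not settle the reading. The calls above therefore rest on the reading of the ratio as Cy5 over Cy3. Under it AcCoAS was lower in treated heads on 8 of 8 arrays and in both dye orientations, with day-10 means of -0.73 for treated RNA in Cy5 and -0.73 in Cy3 as deposited, and of -0.32 and -0.72 after array-median centring.

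Among the 1104 clones measured on all 8 arrays and annotated to a gene, the one whose array-median centred profile correlated best with AcCoAS was Cyt-b5-r clone 1, with a Pearson r of 0.93, ahead of CG17977 (0.90) and CG6503 (0.89). For Cyt-b5-r clone 1 the next after AcCoAS were kuk (0.88) and ppl (0.87). FASN1 was placed 270th for AcCoAS, at 0.32, and its own nearest clones were CAH1 clone 1 (0.99), CG7920 (0.98) and dmpd clone 1 (0.98). Their levels differed: the mean centred ratios were -0.44 at day 14 and -0.29 at day 10 for CG7920, near those of FASN1 (-0.57 and -0.29), but -0.06 and 0.22 for CAH1 clone 1 and 0.12 and 0.35 for dmpd clone 1. The Desat1 clones correlated with each other at -0.48 over the 7 arrays that measured both. All profiles share the arrays, their dye orientation and the print blocks, and these values describe likeness over 8 arrays only.

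The other genes of the pathway were taken from lists put together with earlier results of these data known. Besides the members, the list of synthesis, desaturation, elongation and NADPH supply had 8 tested clones of 7 genes, out of 28 listed genes of which 10 are on the array. None of the 8 passed on either day. Their median was -0.10 at day 14 and -0.25 at day 10 as deposited, against 0.03 and -0.21 over all clones, and -0.13 and -0.02 after array-median centring. The clones with the smallest p in the mean of both days were ATPCL clone 2 and Men-b. ATPCL encodes ATP citrate lyase, which makes cytosolic acetyl-CoA from citrate. Its clone 2 had -0.10 ± 0.18 at day 14 and -0.47 ± 0.15 at day 10 (adjusted p of 0.826 and 0.0649). Men-b, a malic enzyme, had -0.17 ± 0.15 and -0.37 ± 0.13 (adjusted p of 0.623 and 0.0784).

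Triacylglycerol synthesis and storage had 4 tested clones and no call. Lsd-2, which encodes a perilipin of the lipid droplet surface, read 0.49, -0.68, 0.18 and 0.22 at day 14 and -2.31, -0.59, 0.03 and -0.12 at day 10, and its day-10 ratio was -0.74 ± 0.27 (adjusted p = 0.0784), with replicate 1 far below the others. Agpat2, an acyltransferase, had 0.37 ± 0.16 at day 14 and -0.14 ± 0.16 at day 10. Apart from Lip4, the lipases had 3 tested clones and no call. mag, the magro lipase, had 0.13 ± 0.14 at day 14 and 0.36 ± 0.14 at day 10 (adjusted p = 0.112), and Lip1 clone 1 had 0.17 ± 0.12 and -0.44 ± 0.15 (adjusted p = 0.0668 at day 10). The day-10 ratio of mag was 0.57 ± 0.14 after array-median centring (adjusted p = 0.0687) and 0.13 ± 0.15 after local centring (adjusted p = 0.768). Those of Lip1 clone 1 were -0.19 and -0.04.

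Of the carnitine shuttle and beta-oxidation list, whd apart, 7 clones were tested, and 2 fell at day 10 as deposited, where 13.6% of all clones were called lower. Had1, a hydroxyacyl-CoA dehydrogenase, had -0.05 ± 0.15 at day 14 and -0.67 ± 0.15 at day 10 (adjusted p = 0.0182), and Echs1, an enoyl-CoA hydratase, had 0.15 ± 0.17 and -0.60 ± 0.17 (adjusted p = 0.0475). Neither passed after array-median centring, with adjusted p of 0.0846 and 0.207, or after local centring, with 0.154 and 0.314. The list's median was 0.15 at day 14 and -0.28 at day 10 as deposited, and 0.04 and -0.06 after array-median centring.

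Of the 5 tested clones for the fasting response and its regulators, 3 fell at day 10 as deposited, against the same 13.6% of all clones. AkhR, the receptor of the fat-mobilising adipokinetic hormone, read -0.39, -1.06, 0.37 and 0.47 at day 14 and -1.63, -1.02 and -1.06 in replicates 1, 2 and 4 of day 10. Its fitted ratio was -0.15 ± 0.17 at day 14 and -1.11 ± 0.20 at day 10 (adjusted p = 0.00782), below 0 on all measured arrays of day 10 but with a dye split at day 14. The transcription factor gene foxo, known for raising fasting genes, had -0.14 ± 0.13 at day 14 and -0.50 ± 0.13 at day 10 (adjusted p = 0.0274), and sima, the hypoxia-inducible factor alpha of flies, had 0.07 ± 0.13 and -0.56 ± 0.16 (adjusted p = 0.0395). None of the 3 passed at day 10 after array-median centring, with adjusted p of 0.0546, 0.21 and 0.167, although AkhR passed there in the mean of both days (-0.53 ± 0.13, adjusted p = 0.0435). After local centring none of the 3 passed at day 10, with adjusted p of 0.197, 0.66 and 0.826, and AkhR also missed in the mean (-0.40 ± 0.15, adjusted p = 0.164). Of 3 clones of fatty acid carriers, Npc2a, a sterol-binding protein, fell at day 10 as deposited (-0.48 ± 0.14, adjusted p = 0.0441; day 14 -0.22 ± 0.14), but not after array-median centring (adjusted p = 0.302) or local centring (adjusted p = 0.874).

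**Figure D5:**
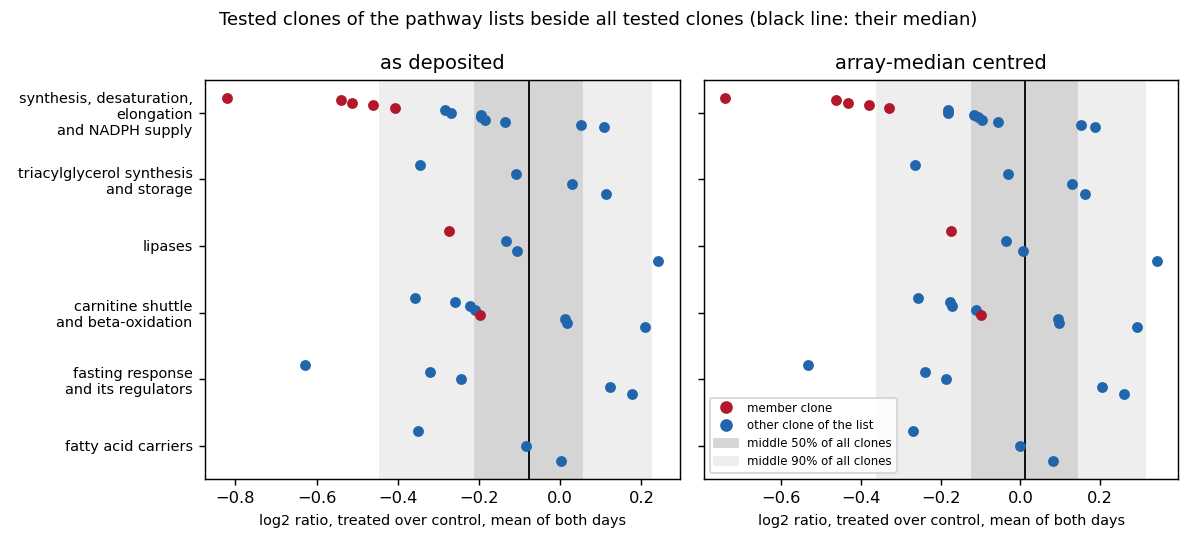
Fitted log2 ratio of treated over control in the mean of both days (horizontal axis) for the tested clones of each pathway list, as deposited (left) and array-median centred (right). Red points are member clones, blue points other clones of a list, and the grey bands hold the middle 50% and 90% of all 4563 tested clones. The synthesis members lie left of the other clones of their list, and whd and Lip4 lie inside the 90% band.

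Markers of the fat body were mostly lower in treated heads at day 10. Of 16 listed fat body genes 12 are on the array, and 8 of their clones were tested. None passed at day 14, with a median of -0.32, and 7 of 8 were lower at day 10, with a median of -1.03 as deposited, against 13.6% of all clones and a median of -0.21. After array-median centring the medians were -0.38 at day 14 and -0.84 at day 10, with 5 of 8 clones lower at day 10 against 2.19% of all clones, and after local centring 4 of 7 were, against 1.32%. By array, the centred median of the measured fat body clones was between -0.47 and -0.01 at day 14 and between -0.87 and -0.11 at day 10. The oenocyte list had 1 of 5 genes on the array and no tested clone. All 4 tested glial clones were lower at day 10 as deposited and 1 of 4 after centring, whereas none of 2 muscle, 2 neuronal and 3 photoreceptor clones passed. In whole heads fewer fat body cells and less of a transcript per cell cannot be told apart, and the part of the fat body in the ratios of the synthesis genes was not tested.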

How the data were processed

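Per the labels' protocols, total RNA from pooled heads was made into double-stranded cDNA and then into dye-labelled cRNA with a T7 kit, and 1 treated and 1 control sample were hybridised together to a two-colour cDNA array. Per the submitters' design text, images were quantified with GenePix Pro 6.0, ratio normalization was done in Acuity 4.0, and spots with an intensity under 100, over 3% saturated pixels or a signal-to-noise ratio under 3 were left out. The deposited table holds 1 log2 ratio per spot and array as the authors normalized it; intensities and depth per spot are not analysed here. The text names no test, so the tests were chosen here.

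Ratios were turned to treated over control, and the spots of a clone (27648 spots, 13824 clones) were averaged. Of the clones, 7558 are annotated to 1 gene, and 7447 of these took their symbol from RefSeq Release 6 by gene ID. limma 3.58.1 in R 4.3.3 (lmFit, eBayes) fitted the days and a dye term on clones with values on at least 3 arrays per day and in both dye orientations. Local centring used neighbours within 2 rows and 3 clones of the print block, at least 5 of them. On data simulated for the day-10 comparison (4563 clones), the fit recovered 45 of 100 clones changed by 0.5 log2 and 99 of 100 changed by 1, with 8 false calls. The simulated noise was independent between clones, with no array-wide shift and no pattern by print block. The number of false calls in the deposited data is therefore not measured by it. The labels name the replicates biological, but whether pools were fully separate is not stated, so p-values measure the spread between these pools. Equal replicate numbers share the dye orientation only: their deviations correlated at 0.1 to 0.265, and at -0.431 to -0.056 once dye means were removed, so the numbers were not used as pairs. Members and lists were chosen with earlier results of these data known. Named list genes are those past the threshold or, where none passed, those with the smallest p in the mean of both days as deposited.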

Additional observations from a re-analysis of the deposited data

How the results depend on the processing

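The members' ratios were recomputed in 740 combinations of result and alternative, of which 657 kept direction and side of the threshold, 32 kept the direction but lost the call, 18 gained it and 33 changed sign; the cause was not tested except where fewer arrays enter. With the ratios read as already turned, 11 clones passed at day 10 and 239 in the mean of both days, with 0 and 1 members, and member ratios became, at day 14, 0.031 for Desat1 clone 1 and -0.48 for Lip4, at day 10, 0.60 for Desat1 clone 1, 0.34 for FASN1, 0.002 for AcCoAS and 0.22 for Cyt-b5-r clone 1, for day 14 minus day 10, -0.57 for Desat1 clone 1, -0.056 for AcCoAS and -0.31 for Cyt-b5-r clone 1, and, for the mean, 0.32 for Desat1 clone 1, 0.097 for FASN1 and 0.060 for Cyt-b5-r clone 1. At day 10, 638 clones passed as deposited, 138 with array medians removed, 60 with local centring, 268 without the dye term, 414 with the replicate block, 87 with the day's arrays alone and 0 with these centred, the last also leaving 0 of 3 members. At day 14, 0 clones passed, but 853 with the day's arrays alone and 415 with these centred, among them 3 and 2 members. For the difference between days 0 passed, and 1 among clones measured on all 8 arrays. In the mean of both days 450 passed, 190 with local centring, 199 without the dye term and 336 with the replicate block; 4 members passed, 2 with array medians removed and 2 with the second spot alone. The replicate block changed no member's call. Leaving out 1 array in turn gave 226 to 684 clones at day 10 (centred 3 to 143, the lowest of both without replicate 1 of day 10, with 0 to 3 members), 0 to 3 at day 14, 0 to 17 for the difference (17 without replicate 3 of day 10) and 166 to 456 for the mean (centred 28 to 276, with 0 to 3 members, the lowest without replicate 4 of day 14). Without 1 array, ratios that crossed 0 at day 14 ran from -0.43 to 0.135 for Desat1 clone 1 (centred -0.55 to 0.18), -0.136 to 0.002 for whd and -0.121 to 0.118 for Lip4 (centred -0.060 to 0.065); at day 10, the centred ratio of whd ran from -0.154 to 0.014; and the difference from -0.208 to 0.181 for FASN1 and, centred, from -0.26 to 0.465 for Desat1 clone 1 and -0.128 to 0.039 for whd. Other sign changes were, for Lip4 at day 14, -0.049 with local centring, -0.134 with the replicate block and -0.137 with the second spot; for the difference, -0.078 for Desat1 clone 1 and -0.032 for whd with array medians removed, and for FASN1 0.107 with local centring and 0.243 with the first spot. The single-spot fits and the centred fits of 1 day were chosen after seeing the data. For the ratio of 1 day, some fits left out an array of the other day, or one with no value for the clone. Such fits say little about that ratio.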
